A study of Mus musculus with 3 samples.

Results

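Flag-only peaks are sites where an antibody against the Flag tag gave a CUT&Tag peak in mouse Pan02 cells carrying POH1-Flag and where neither MYC library of the series had a peak. They were chosen as the Flag peaks on chromosomes 1 to 19 and X that share not even 1 bp with a MYC peak of vector cells or of POH1-Flag cells. There were 1214 of them among 2805 Flag peaks on these chromosomes, 43.3% (Wilson 95% interval 41.5 to 45.1%). The whole Flag list holds 2936 peaks, and the MYC lists hold 12175 peaks in vector cells and 22647 in POH1-Flag cells. Of the other 1591 Flag peaks on these chromosomes, 830 met a peak in both MYC lists, 437 only in the POH1-Flag list and 324 only in the vector list.

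Pan02 is an established line from a mouse pancreatic ductal adenocarcinoma. The 3 libraries are Flag in cells that stably express POH1-Flag, MYC in cells carrying the vector, and MYC in the cells with POH1-Flag, with 1 library per group. No group had a replicate, so no test between groups was made, and the intervals below cover counting error within a library. Whether the lines are single clones is not given in the sources used here. A Flag library of vector cells was not analysed here, so the peaks that the Flag antibody gives in cells without the tag are not known.

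POH1 is a metalloprotease in the lid of the proteasome, where it takes ubiquitin chains off proteins that are about to be degraded; its gene is Psmd14. MYC pairs with MAX on E-box sequences and lies mostly at active promoters. In CUT&Tag a transposase is tethered to the antibody and inserts sequencing adapters into nearby DNA, and free enzyme can also insert them into accessible DNA.

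No Flag-only peak overlapped a promoter, as defined by the RefSeq windows of GRCm38.p6 that run from 250 bases before to 50 bases after a gene's start. The count was 0 of 1214 against 32619 windows of 26794 genes, which allows a share of up to 0.247%. The windows cover 0.342% of the chromosome lengths. Of the Flag peaks that meet a MYC peak, 4 of 1591 overlapped a window (0.251%, Wilson interval 0.0978 to 0.645%). The MYC lists were far higher, at 39.1% of the vector peaks and 31.4% of the POH1-Flag peaks on these chromosomes. Over all 2805 Flag peaks the share was 0.143% (4 peaks). The rule leaves out Flag peaks that touch a MYC peak, so the Flag-only count at promoters is lowered in part by construction.

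The promoters that came closest to a Flag-only peak are shown to make that distance concrete, since the sequences under the peaks themselves were not used here. The nearest window of all belongs to the long noncoding RNA gene Gm40412, and its edge lay 54 bp from a peak of 10 reads at chr12:41607134-41607366. Among protein-coding genes the nearest was Wap, the gene of the milk protein whey acidic protein, with 693 bp between its window and a peak of 10 reads at chr11:6637648-6637906. Both genes lie on the minus strand. The 250 bases before each start (RefSeq, GRCm38.p6) read 5′ to 3′ as follows, with the 20 bases next to the start, which is the side that faces the peak, in capitals.
Gm40412, chr12:41607471-41607720: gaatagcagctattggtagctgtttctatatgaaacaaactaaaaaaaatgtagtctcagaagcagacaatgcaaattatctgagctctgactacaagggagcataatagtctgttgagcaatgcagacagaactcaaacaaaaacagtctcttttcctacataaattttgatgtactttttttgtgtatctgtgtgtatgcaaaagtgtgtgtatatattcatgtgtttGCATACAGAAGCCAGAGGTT
Wap, chr11:6638650-6638899: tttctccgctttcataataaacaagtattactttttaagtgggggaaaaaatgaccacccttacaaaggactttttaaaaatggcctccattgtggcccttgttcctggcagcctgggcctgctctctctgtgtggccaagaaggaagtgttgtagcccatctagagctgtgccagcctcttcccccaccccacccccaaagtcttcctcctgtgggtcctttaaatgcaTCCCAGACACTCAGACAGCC
Neither window holds the palindromic E-box CACGTG, which 7.20% of all 32619 windows hold (2348 windows).

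Flag-only peaks were weak and narrow. Their strength is given as the whole number of reads piled up at the summit, which was worked out from the fold enrichment and −log10 p that the authors deposited. The median pileup was 13 reads, with quartiles of 11 and 15 and a range of 7 to 34. The local background that the peak caller set against it had a median of 1.63 reads. Flag peaks that meet a MYC peak had a median pileup of 16 reads, quartiles of 13 and 23 and a highest value of 413. Both kinds began at the same 7 reads, but only 66 Flag-only peaks reached 20 reads (5.44%, Wilson interval 4.30 to 6.86%), against 527 of the others (33.1%, 30.9 to 35.5%).

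Widths and the authors' values followed the same order. Flag-only peaks had a median width of 274 bp, and 286 of them (23.6%) had the smallest width in the list, 233 bp. The median was 352 bp for the other Flag peaks, of which 8.17% had the smallest width. A wider Flag peak has more bases that can touch a MYC peak, so the rule lowers Flag-only widths in part by construction. How far the rule also lowers their pileups was not tested. The authors' fold enrichment had a median of 5.0 in Flag-only peaks and reached 11.3, and the authors' −log10 q had a median of 4.09 and reached 20.7. Split by −log10 q into 10 bins of nearly equal size, the Flag list lacked a MYC peak at 69.8% of its weakest bin (64.1 to 74.8%) and at 1.42% of its strongest (0.555 to 3.6%). The bins describe the chosen peaks and were not tested.

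**Figure D1:**
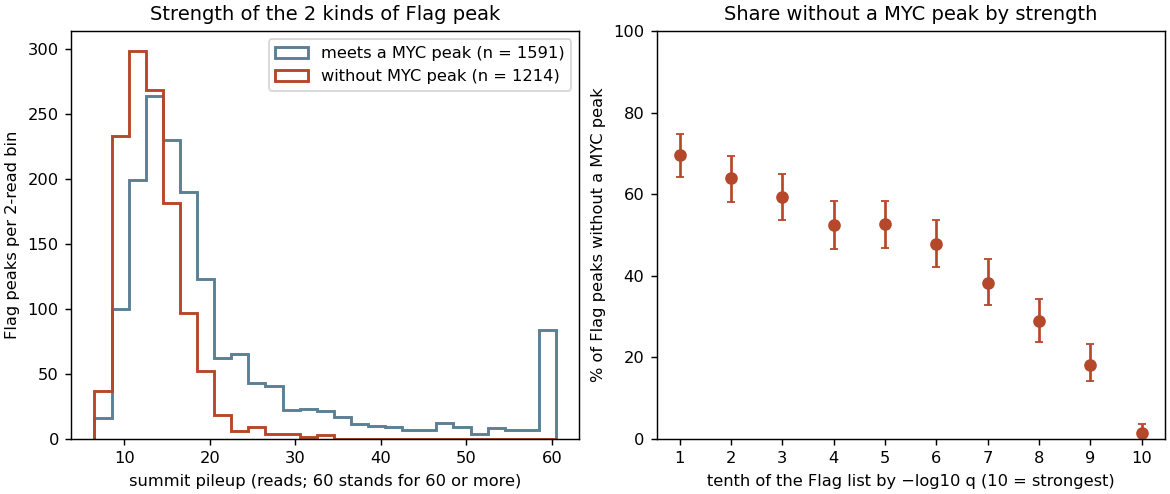
Left, the number of Flag peaks by summit pileup in reads (bins of 2 reads), for Flag peaks without (red) and with (blue) a MYC peak. Right, the percentage of Flag peaks without a MYC peak in each of 10 bins of the Flag list by −log10 q, with Wilson 95% intervals, falling from 69.8% in the weakest to 1.42% in the strongest.

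The Flag and MYC libraries had similar depth by the lowest background in each list, at 4.06 reads per kb in the Flag list, 3.86 in the vector MYC list and 4.09 in the POH1-Flag MYC list. The weakest peaks listed had a −log10 p of 4.46, 3.88 and 3.59 in the same order. MYC reads at the Flag-only sites were not measured, because a peak list holds no signal below its own limit. The absence of a MYC peak therefore does not show the absence of MYC reads.

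The strongest Flag-only peak, by the authors' −log10 q (20.7), lay inside Tiam1, which encodes an activator of the GTPase RAC. It had 27 reads over a background of 1.47 at chr16:90071204-90071531, 74.3 kb from the nearer gene end and 72.3 kb from the nearest MYC peak. Next came a peak of 26 reads inside Bach2, a transcriptional repressor of lymphocytes, at chr4:32356694-32357025. It lay 118 kb from the nearer gene end. Inside Bcas3 a peak of 20 reads stood 152 kb from the nearer end (chr11:85674104-85674470). All 3 lie deep inside genes that are over 300 kb long.

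Other peaks among the 10 strongest were inside Iqch (19 reads, 54.8 kb from the nearer gene end) and inside Plcb1, a phospholipase C that acts below G protein-coupled receptors (20 reads, 218 kb). The remaining 5 lay outside protein-coding genes. Their nearest gene ends were those of the mitochondrial carrier gene Slc25a13 (22 reads, 27.4 kb away), the homeobox gene Irx1 (25 reads, 12.9 kb), the lysosomal enzyme gene Aga (20 reads, 432 kb), Zfp386 (23 reads, 601 kb) and Tmem121 (33 reads, 98.5 kb). The peak near Irx1 is the only one of the 10 with a MYC peak close by, 249 bp away in POH1-Flag cells. For the other 9 the nearest MYC peak was at least 11.1 kb off. No peak of the 10 lay within 12 kb of a protein-coding gene end.

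The peaks of Zfp386 and Tmem121 lie in the immunoglobulin heavy chain locus (Igh), which was singled out after its values were seen. Its annotated segments span 2.75 Mb (chr12:113256204-116009954) and held 6 Flag-only peaks, of 13, 18, 23, 23, 27 and 33 reads. That is 2.18 per Mb, beside 0.461 per Mb over all the chromosomes. A group of 3 neighbours (33, 27 and 18 reads) stood within 5.85 kb of each other, on a local background of 5.35, 6.14 and 5.59 times the genome-wide level. The other 3 stood on 1.75 to 2.61 times that level. The locus also held 1 Flag peak that meets both MYC lists, with 97 reads. None of the other antigen receptor loci held a Flag-only peak, including the 3.17 Mb of the kappa light chain locus Igk and the 1.80 Mb of the T cell receptor alpha locus Tra. At the rate over all chromosomes, loci of these sizes would hold few such peaks, so their zeros do not set Igh apart.

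Flag-only summits were mostly far from gene ends. They had a median distance of 68.7 kb (order-statistic 95% interval 61 to 76.2 kb) to the nearest end of a protein-coding gene, and 504 of them (41.5%) were over 100 kb away. The other Flag peaks had a median of 59.7 kb (53.2 to 67.5 kb), and MYC peaks 2.04 kb in vector cells and 6.5 kb in POH1-Flag cells. Within 1 kb of a gene end lay 10 Flag-only peaks (0.824%, Wilson interval 0.448 to 1.51%), and such windows cover 2.98% of the chromosome lengths. Of the other Flag peaks 33 lay there (2.07%, 1.48 to 2.90%), and of vector MYC peaks 45.3%. Over all 2805 Flag peaks the number was 43 (1.53%, 1.14 to 2.06%). The rule leaves out Flag peaks that touch a MYC peak, and MYC peaks are frequent at gene ends. The Flag-only share is thus lowered in part by construction.

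The 2 kinds of Flag peak were also set side by side at matched pileup. Among peaks of 10 to 12 reads, 0.446% of 448 Flag-only peaks and 1.5% of 266 others were near a gene end. At 13 to 15 reads it was 0.802% and 1.02%, and at 16 to 19 reads 0.976% and 1.12%. The Wilson intervals of the 2 kinds overlapped in each range. The shares of both kinds stood below the 2.98% of the chromosome lengths in each range. The Wilson interval included 2.98% for Flag-only peaks at 16 to 19 reads and for the others at 10 to 12 reads. A shortfall is thus not shown in these cases, and the remaining intervals ended below 2.98%.

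**Figure D2:**
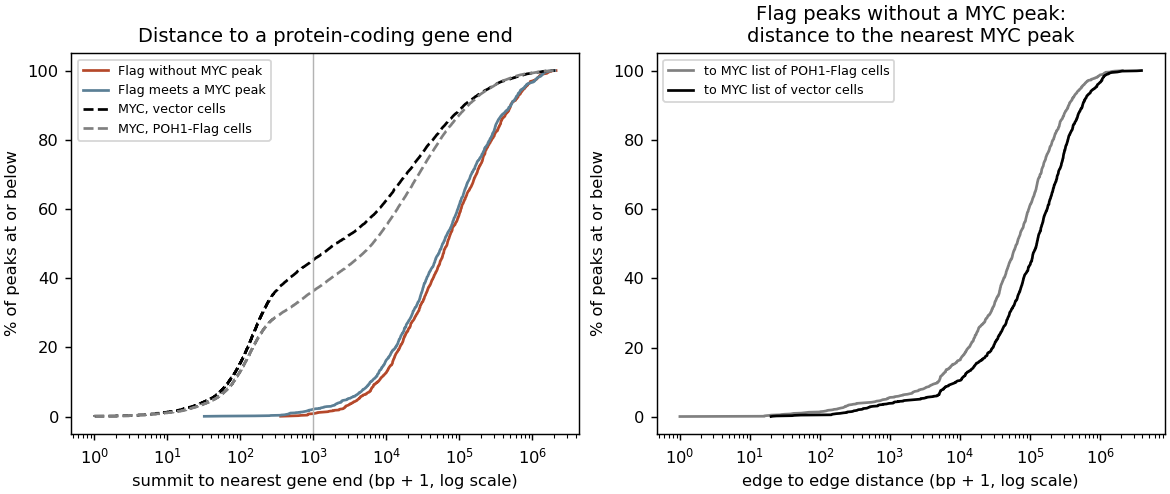
Left, the cumulative percentage of peaks by distance from summit to the nearest protein-coding gene end (bp + 1, log scale), for Flag peaks without and with a MYC peak and for both MYC lists. The grey line marks 1 kb, where the Flag curves stand at 0.824% and 2.07% and the vector MYC curve at 45.3%. Right, the cumulative percentage of Flag peaks without a MYC peak by distance to the nearest MYC peak of each list.

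Genes with a Flag-only summit within 1 kb of an end numbered 10 of 21631, which is 0.0462%. The strongest was at the olfactory receptor gene Olfr270 (15 reads, 672 bp from its end, −log10 q 7.41). It was followed by Ubxn1, a cofactor of the ubiquitin segregase p97 (15 reads, 355 bp), and the DNA helicase gene Helq (13 reads, 621 bp). Wap (10 reads, 855 bp), Frmd4a (11 reads, 995 bp) and Zfp706 (9 reads, 843 bp) were weaker. Each of these 6 peaks stood on a local background below 2 times the genome-wide level. The remaining 4 were at the predicted genes Gm428 (19 reads), Gm11236 (18 reads), Gm9758 (29 reads) and LOC100504180 (29 reads), where the background was 3.92, 4.19, 9.04 and 12.1 times that level. Of the 10 genes, Zfp706 had a MYC peak at an end in both MYC libraries, LOC100504180 in vector cells alone, and Ubxn1 and Helq in POH1-Flag cells alone.

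Near Cd44, which encodes the hyaluronan receptor and was singled out after its values were seen, a Flag-only peak of 16 reads stood 1.87 kb outside the gene end (chr2:102903392-102903670, −log10 q 10.9). Its local background was at the genome-wide level, and MYC peaks of both cell lines lay within 1.58 kb of it without touching it. Psmd14 itself held no Flag peak of either kind. The nearest Flag-only peak was 1012 kb away, with 9 reads. The Myc gene was 1137 kb from the nearest one.

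Inside protein-coding genes lay 416 Flag-only summits (34.3%, Wilson interval 31.7 to 37.0%), below the 39.1% of the chromosome lengths that these genes cover. The interval reached that value at a −log10 q of 5 or more (37.3%, 32.7 to 42.2%) and without chromosomes 1, 2 and 3 (37.2%, 33.9 to 40.7%). The other Flag peaks were at 36.0% (33.6 to 38.3%) and vector MYC peaks at 54.8%. At 10 to 12 reads the shares were 33.3% (29.1 to 37.7%) and 43.6% (37.8 to 49.6%), at 13 to 15 reads 32.6% and 32.8%, and at 16 to 19 reads 39.0% and 35.1%, so the intervals of the 2 kinds of Flag peak just missed each other at 10 to 12 reads and overlapped in the other ranges. A further 74 Flag-only summits lay in long noncoding RNA genes, 24 in other annotated genes such as pseudogenes, and 700 (57.7%) in no annotated gene. RefSeq's table gives gene starts and ends only, so exons and introns were not used here.

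The 383 host genes, 1.77% of all 21631, were long. Their median length was 189 kb, against 148 kb for hosts of the other Flag peaks and 17.3 kb over all protein-coding genes. Long genes also hold most of the gene sequence, and the median length weighted by bases is 139 kb. Weighted by summits, the median host length was 198 kb for Flag-only peaks and 155 kb for the other Flag peaks. Counted per Mb of gene body, Flag-only summits numbered 0.278 in genes under 10 kb (9 summits, exact Poisson interval 0.127 to 0.528), 0.262 from 10 to 30 kb, 0.347 from 30 to 100 kb, 0.430 from 100 to 300 kb and 0.489 over 300 kb (156 summits, 0.415 to 0.572). Flag peaks that meet a MYC peak also had lower values in short genes. They stood at 0.402 under 10 kb (13 summits, 0.214 to 0.687) and 0.381 from 10 to 30 kb. Their value was 0.572 already from 30 to 100 kb and 0.577 over 300 kb.

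**Figure D3:**
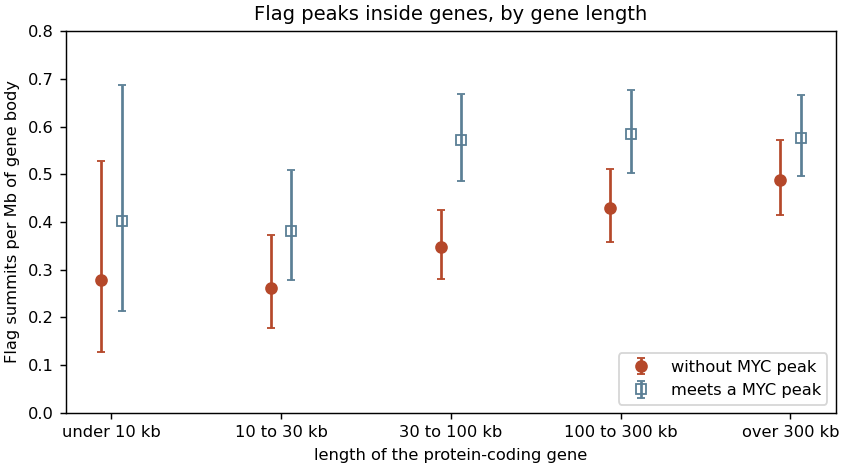
Flag summits per Mb of gene body by the length of the protein-coding gene, for Flag peaks without (red circles) and with (blue squares) a MYC peak; bars are exact Poisson 95% intervals. The red values run from 0.262 to 0.489, and the blue values are level from 30 kb upward.

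Most host genes held a single peak. There were 346 with 1 Flag-only peak, 35 with 2 and 2 with 3. Among the last, Erbb4 on chromosome 1, a neuregulin receptor of the EGF receptor family (length 1077 kb), held peaks of 16, 16 and 19 reads. All 3 lay at least 376 kb from a gene end, and Erbb4 had no MYC peak within 1 kb of an end. It also held 2 Flag peaks that meet a MYC peak.

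A MYC peak lay within 1 kb of an end in 21.7% of the 383 host genes in vector cells (Wilson interval 17.8 to 26.1%) and 30.5% in POH1-Flag cells (26.1 to 35.3%). Over all genes the shares were 28.5% and 40.5%. Among all genes over 100 kb they were 23.8% and 35.5%. Of these long genes, those with a Flag-only peak (254) had a MYC peak at an end in 17.3% (13.2 to 22.5%) and 26.4% (21.3 to 32.1%), and those without (2173) in 24.6% (22.8 to 26.4%) and 36.6% (34.6 to 38.6%). Length was not matched between these 2 sets, and hosts of the other Flag peaks were not set beside them. Hosts were 122 of 1870 genes of 100 to 300 kb (6.52%) and 132 of 557 genes over 300 kb (23.7%). The part of gene length in the difference was not tested. Examples of hosts with MYC at an end in both cell lines were Prim2, a subunit of DNA primase, and Trio, which activates RAC, each with 2 Flag-only peaks.

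The gene lists were read against the share of 1.77% of all genes that hold a Flag-only summit. None was found inside 51 proteasome genes, 13 genes of the MYC network, 29 core MYC targets, 91 ribosomal protein genes, 101 histone genes, 1106 olfactory receptor genes, 53 keratin genes, 16 acinar genes, 13 ductal genes or 31 mesenchymal, YAP and AP-1 genes. These genes are mostly short, with medians between 0.502 and 17.7 kb, so few peaks could fall in them. Among 20 pancreatic cancer drivers 1 was a host, Gnas, the gene of a stimulatory G protein subunit, with 9 reads. Zinc finger genes had 4 hosts of 461, among them Zfp821 (13 reads) and Zfp993 (22 reads), protocadherins 3 of 69, led by Pcdh7 (16 reads), and vomeronasal receptors 1 of 353, Vmn2r114 (11 reads).

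Hosts were frequent among very long genes. Of 38 long neuronal adhesion and synapse genes 17 were hosts (44.7%), with 22 summits, and of 18 common fragile site genes 8 were (44.4%), with 12 summits. Their strongest peaks were in Erbb4 (19 reads) and Dpp10 (18 reads) for the first list, and in Lrp1b (13 reads) and Nbea (15 reads) for the second. Of all genes over 300 kb 23.7% were hosts. Per Mb of gene body the neuronal list had 0.478 summits (0.300 to 0.724) and the fragile site list 0.516 (0.267 to 0.901), beside 0.489 in all genes over 300 kb and 0.403 in all genes. Some genes, such as Lrp1b, Ctnna3, Dlg2 and Macrod2, stand in both lists.

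Chromosomes 1, 2 and 3 held more Flag-only peaks than their length. Chromosome 1 had 181 peaks, or 0.926 per Mb (exact Poisson interval 0.796 to 1.07), chromosome 2 had 146 (0.802, 0.677 to 0.943) and chromosome 3 had 124 (0.775, 0.645 to 0.924). Every other chromosome lay between 0.246 per Mb on chromosome 11 (0.166 to 0.351) and 0.473 on chromosome 4 (0.372 to 0.594), so the intervals of the first 3 did not reach those of the others. Together chromosomes 1, 2 and 3 held 37.1% of the Flag-only peaks on 20.4% of the length.

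This excess was shared with the other Flag peaks, of which 40.4% lay on the same 3 chromosomes, at 1.19 per Mb against 0.453 on the other 17. MYC peaks differed less, at 5.23 and 4.35 per Mb for the vector list and 9.13 and 8.28 per Mb for the POH1-Flag list. The local background under Flag-only peaks moved with the excess. Its median was 2.27 times the genome-wide level on chromosomes 1, 2 and 3 and 1.55 times on the rest, and the median pileup was 15 and 12 reads. Under MYC peaks beyond 1 kb of a gene end the medians were 2.05 and 1.89 times in vector cells and 2.05 in both groups of chromosomes in POH1-Flag cells. The part of the local background in the excess was not tested. Across the 20 chromosomes Flag-only peaks per Mb and median background had a Pearson r of 0.80 and a Spearman rho of 0.40, and without chromosomes 1, 2 and 3 the Pearson r was 0.05. These points share a single library.

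**Figure D4:**
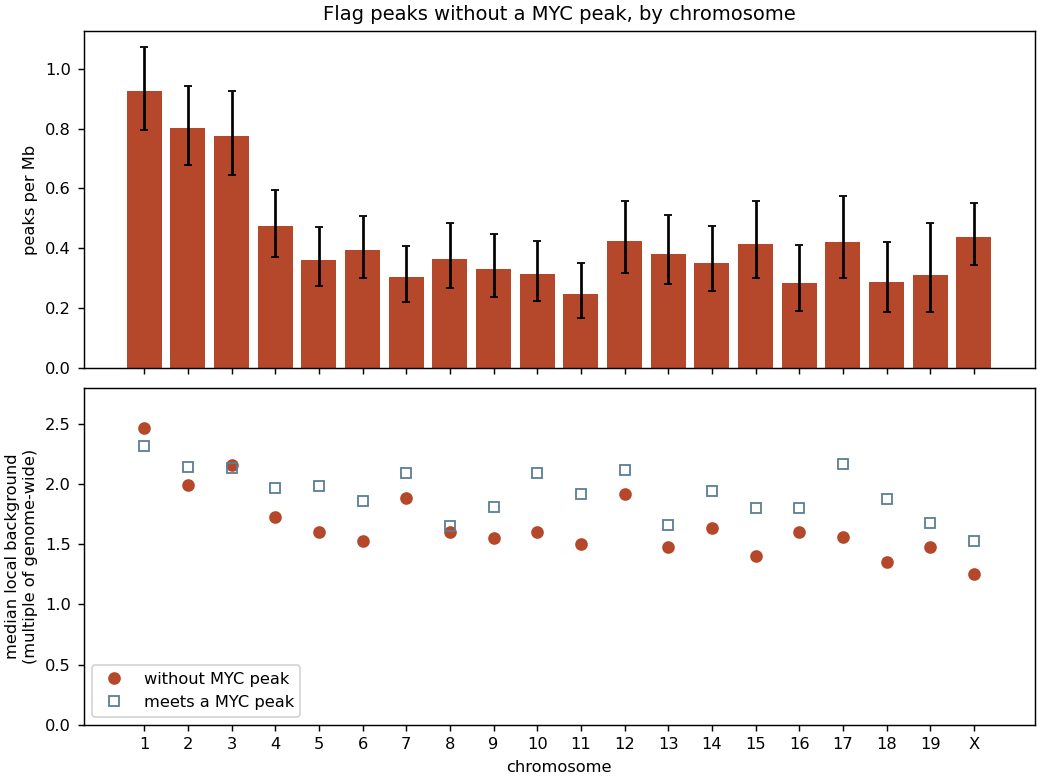
Top, Flag peaks without a MYC peak per Mb of each chromosome, with exact Poisson 95% intervals. Bottom, the median local background at their summits (red) and at Flag peaks that meet a MYC peak (blue), as a multiple of the genome-wide background. Chromosomes 1, 2 and 3 stand at 0.775 to 0.926 per Mb, all others at or below 0.473.

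The excess was spread over many windows of these chromosomes but not all. In full windows of 20 Mb chromosome 1 had 14 to 23 Flag-only peaks (median 16, 9 windows), chromosome 2 had 9 to 21 (median 15) and chromosome 3 had 9 to 21 (median 16). Medians on the other chromosomes were 5 to 9, so the windows of 9 peaks from 20 to 40 Mb on chromosome 2 and from 80 to 100 Mb on chromosome 3 showed no excess. Windows elsewhere also reached 15 peaks or more, the median of chromosome 2. Chromosome X had 19 from 40 to 60 Mb and 15 from 60 to 80 Mb. Chromosome 12 had 17 from 100 to 120 Mb, which holds the Igh locus, and chromosome 14 had 15 from 100 to 120 Mb. On chromosome 8 there were 16 from 40 to 60 Mb. Further windows fell within the 9 to 21 of chromosomes 2 and 3, up to 13 on chromosomes 4 and 15. The window from 60 to 80 Mb on chromosome 11 was empty.

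**Figure D5:**
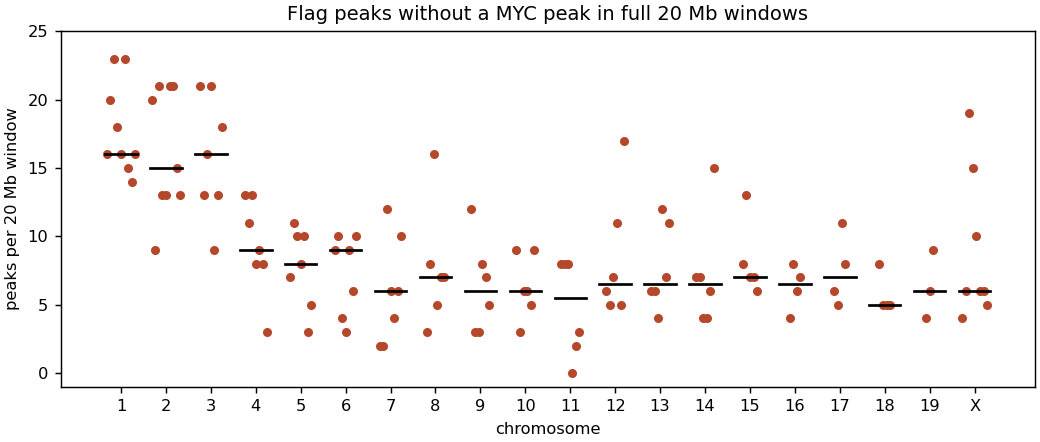
Flag peaks without a MYC peak in each full 20 Mb window, in order along each chromosome (points), with the median of each chromosome (black line). The medians of chromosomes 1, 2 and 3 are 15 to 16, those of the others 5 to 9.

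Measured against the number of Flag peaks rather than length, chromosomes 1, 2 and 3 did not stand apart. Of their Flag peaks 40.4% (36.0 to 45.0%), 39.6% (34.7 to 44.6%) and 44.9% (39.2 to 50.8%) lacked a MYC peak, beside 43.3% in all. The highest share was on chromosome X, at 52.4% (75 of 143, Wilson interval 44.3 to 60.5%), and the intervals of chromosomes 13 (52.3%) and 4 (51.4%) overlapped it widely. MYC peaks were sparse on chromosome X, with 1.22 per Mb in vector cells and 2.76 in POH1-Flag cells. The lowest was 35% on chromosome 9 (27.0 to 44.0%). Chromosome X also had the lowest median pileup of Flag-only peaks, 10 reads, and the lowest median background, 1.26 times the genome-wide level.

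Flag-only peaks were mostly scattered. The median gap from one to the next was 1187.6 kb (1081 to 1321 kb). In 93 of 1194 gaps (7.79%) it was under 100 kb, against 15.6% for the other Flag peaks, which were more numerous. The next Flag peak along the chromosome was again Flag-only for 562 of 1211 (46.4%, Wilson interval 43.6 to 49.2%), and Flag-only peaks were 43.3% of the list, just below that interval. With clusters defined as 3 or more Flag-only peaks at gaps of at most 100 kb, 31 peaks (2.55%, 1.80 to 3.6%) fell in 10 clusters, 6 of them on chromosomes 1, 2 and 3.

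The largest cluster held 4 peaks over 185 kb of the interferon-inducible Ifi200 gene family on chromosome 1 (chr1:173787926-173972901), whose proteins sense DNA and regulate transcription. From left to right the pileups were 13, 15, 15 and 17 reads. The last peak lay inside Ifi202b, and the others 21.0, 20.3 and 2.61 kb from the ends of Ifi204, Mndal and Ifi211. No Flag peak with a MYC partner lay among them. The family consists of closely related copies, and its values are uncertain where reads could be placed in more than 1 copy.

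The next clusters held 3 peaks each. Around Bdnf, the gene of the neurotrophin BDNF, peaks of 14, 18 and 18 reads stood over 157 kb (chr2:109668046-109824788), 1 of them 6.57 kb to the left of the gene and 2 to its right. Gene-poor stretches held 2 more. Beside Pfkp, the platelet phosphofructokinase gene, peaks of 13, 15 and 16 reads began 135 kb from the gene. Beyond Rap2b, a RAS-like GTPase gene, peaks of 13, 13 and 16 reads began 270 kb from the gene, with 630 kb to Arhgef26 on the other side. The Igh cluster described above completes the 5 with the most or strongest peaks.

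At gaps of up to 1 Mb the longest run held 12 Flag-only peaks over 4.29 Mb of chromosome 2 (chr2:133476175-137769935), from Bmp2, a bone morphogenetic protein gene, to the region before Btbd3. It took in Hao1, Tmx4, Plcb1, Plcb4, Ankef1 and Jag1, a Notch ligand gene. Pileups ran from 13 to 22 reads, with a median of 15.5, and 9 Flag peaks with a MYC partner lay between them. The run thus mixed both kinds of Flag peak.

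A small group stood on a high local background. In 55 Flag-only peaks (4.53%) it was at least 4 times the genome-wide level, as in 222 of the other Flag peaks (14.0%). The highest values included 12.4 and 11.7 times at 2 peaks of 33 and 34 reads beside the predicted gene Gm51572 on chromosome 8, and 12.1 times at LOC100504180 on chromosome 10. Next were Gm9758 on chromosome 5 (9.04 times), a site 51.7 kb from Gm21119 on chromosome 8 (7.59 times) and a site near Speer4e on chromosome 5 (7.54 times). Gm9758 and Speer4e belong to a cluster of 3 Flag-only peaks of 26, 29 and 27 reads over 42.9 kb. Repeat annotation was not used here, so how far multiple copies of these sequences add to the pileup was not tested.

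MYC peaks were not always far away. The median distance from edge to edge to the nearest MYC peak was 49.4 kb (44.6 to 56.7 kb), 124 kb for the vector list and 64.9 kb for the longer POH1-Flag list. A MYC peak stood within 1 kb of 96 Flag-only peaks (7.91%) and within 200 bp of 41 (3.38%). These 96 had a median pileup of 14 reads, beside 13 for the remaining 1118. The authors' −log10 q went the other way, with medians of 3.79 and 4.09. At the edge of the rule, a Flag-only peak of 10 reads, 168 kb from the neuronal adhesion gene Cntn6, touched a POH1-Flag MYC peak with no base shared, and peaks of 13 reads in Spag17 and 10.9 kb from Kif5c lay 15 bp from one. Just beyond it, peaks 573 kb from Rapgef2, inside Kcnj3 and 16.9 kb from Dglucy, of 17, 11 and 13 reads, shared 3, 6 and 7 bp with a MYC peak and were not counted. At the lower limit of the Flag list the weakest Flag-only peaks had 8 reads 196 kb from Dok5 and in Vipr2 (−log10 q 1.37) and 7 reads in Dipk1a (1.40).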

How the data were processed

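CUT&Tag peak lists of 3 libraries were used, 1 list per library. A transposase kit was used, per the labels' protocols. The submitters' processing notes name MACS2 2.2.7.1, BWA 0.7.17-r1188, Trim Galore 0.6.6, FastQC 0.11.9 and build GRCm38, without roles or parameters. No source used here states a control library, duplicate removal or a blacklist. In the deposited lists, which have no header, the authors' fold enrichment is a linear ratio of summit pileup over background. The −log10 p and −log10 q values are the authors', and the score column they deposited holds 10 times the latter, truncated. Peak starts, ends and summit offsets were deposited in bp.

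Whole summit pileups k and backgrounds λ were found as the pair whose (k + 1)/(λ + 1) is the fold and whose Poisson chance of more than k reads is the p. A whole k met the deposited −log10 p within 0.01 in 100% of peaks of each list. The lowest λ was 0.946 reads in the Flag list and 0.845 and 0.826 in the vector and POH1-Flag MYC lists, taken as genome-wide background. Divided by the smallest peak width it gave 4.06, 3.86 and 4.09 reads per kb, so depths were close. No source used here gives total reads. Genes were 21631 protein-coding genes of RefSeq on GRCm38.p6. A chromosome's length was the largest end of any peak or gene on it. Shares have Wilson, counts exact Poisson and medians order-statistic 95% intervals, for counting error only. Python 3.11.15, scipy 1.17.1 and pandas 2.3.3 were used. Of the steps, only pileup recovery and overlap were tested on simulated data, and clustering on a small made-up case.

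The peaks, gene lists and alternatives were chosen with earlier results of these data known. Named genes are those of the 10 strongest Flag-only peaks, of all peaks within 1 kb of a gene end, of genes with 3 or more peaks (1 is not reported here), of the 5 largest clusters (ties by −log10 q), up to 2 per gene list, Psmd14 and Myc, and 3 peaks at each limit. Genes of the longest run, of the highest backgrounds, Igh, Cd44, Prim2 and Trio were added after their values were seen. Alternatives were other overlap rules, stricter lists and other distances.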

Additional observations from a re-analysis of the deposited data

Results flagged for a closer look

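Outside chromosomes 1 to 19 and X, 12 of the 18 Flag peaks on chromosome Y (66.7%) and 12 of the 108 on unplaced or alternate contigs (11.1%) overlapped no MYC peak, beside 43.3% on the chromosomes described. On the mitochondrial genome it was 0 of 5. These sequences stand outside the comparisons above, and the difference in share was not tested.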

How the results depend on the processing

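The count of 1214 Flag-only peaks stayed within 1.5 times under 4 alternatives: 1118 with no MYC peak within 1 kb, 1360 with the summit outside every MYC peak, 1387 with less than 50% covered by 1 MYC peak, and 1542 with the POH1-Flag MYC list cut to the vector list's length. With Flag peaks held to a −log10 q of 5 or more it was 391, with a fold of 5 or more 612, and 1850 when only MYC peaks with a −log10 q of at least 5 counted. The share near a gene end was between 0.654 and 1.18% wherever 1 kb was kept, and 6.26% within 5 kb. The share inside a gene was 37.3% at a Flag −log10 q of at least 5 and 37.2% without chromosomes 1, 2 and 3, an alternative chosen after seeing the data. The share in clusters depended most on the settings. It was 0.247% at gaps of 10 kb, 41.2% at 1 Mb, 0.767% and 0.980% with the stricter Flag lists, 6.65% with the stricter MYC lists and 1.57% without chromosomes 1, 2 and 3. Median pileups were 15 reads at a Flag −log10 q of at least 5 and 12 without these chromosomes. The relative background was 1.48 at a fold of at least 5, 1.82 with the stricter MYC lists and 1.55 without these chromosomes. The densest chromosome was X, at 524 per 1000 Flag peaks, in place of chromosome 1. Stricter lists hold fewer peaks by construction. The cause of the other shifts was not tested. No paired analysis was possible because each group has 1 library.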

Other observations

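Distances from Flag-only peaks to the nearest MYC peak did not fall off evenly. There were 18 Flag-only peaks at 4 to 5 kb from a MYC peak, 37 at 5 to 6 kb and 17 at 6 to 7 kb, edge to edge. This was seen while looking through the distances, and its cause was not tested.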
